A study of Mus musculus with 40 samples.

Results

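Uncoupling proteins are carriers of the mitochondrial inner membrane, and the mouse genes Ucp1, Ucp2 and Ucp3 were followed here through 4 histone marks in brown adipose tissue. They were taken by name, 3 out of 21951 protein-coding genes of the annotation, and each was examined from 50 kb upstream of its start to 10 kb downstream of its end. Their windows held 227 of the 457842 peaks in the 32 lists, of which 136 were H3K27ac, 52 H3K4me3, 39 H3K4me1 and 0 H3K27me3 peaks. The tissue, labelled iBAT, came from wild type C57BL/6N mice aged 20 weeks. Mice 1 and 2 were kept warm on normal chow (NCD), mice 4 and 5 were on NCD and spent 24 h at 4 °C, mice 7 and 8 were kept warm after 12 weeks of high-fat diet (HFD) from the age of 8 weeks, and mice 10 and 11 received the same HFD and the same cold treatment. Each of the 4 conditions thus had 2 mice and each mouse 1 list per mark. The labels give no warm temperature, and the methods leave it unclear whether each experiment used 1 mouse or joined 2. Whole tissue was used, so the cells that carried a mark cannot be told apart.

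Ucp1 lets protons return through the inner membrane without making ATP, which turns the energy of fuel oxidation into heat, and it is the protein that defines brown fat. Cold reaches the gene through noradrenaline, beta-adrenergic receptors and cyclic AMP, together with nuclear receptors such as PPARs and the thyroid hormone receptor, which act at an enhancer a short distance before the gene. Ucp3 is found mainly in skeletal muscle and brown fat, and Ucp2 is found widely, with high levels in immune cells. H3K4me3 marks active promoters, H3K27ac active promoters and enhancers, H3K4me1 enhancers, and H3K27me3 silenced genes.

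Ucp1 (ENSMUSG00000031710.4) lies on chromosome 8 at 83290352 to 83298452 of GRCm38, on the plus strand. Ucp3 (ENSMUSG00000032942.14) and Ucp2 (ENSMUSG00000033685.13) are neighbours on the plus strand of chromosome 7, at 100472990 to 100486432 and 100493337 to 100502020. Their starts are 20.3 kb apart, so the windows of Ucp2 and Ucp3 share most of their peaks, and the Ucp3 promoter falls in the upstream window of Ucp2. No other protein-coding gene starts in any of the windows. The antisense gene Gm10603, on the minus strand at 100446737 to 100474846, starts inside Ucp3, a short way after its TSS. Marks at the Ucp3 promoter can therefore not be assigned to Ucp3 alone. Positions below are in kb from the annotated transcription start site (TSS), negative before it.

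The sequences just before the starts of the 3 genes are shown because an H3K4me3 summit lay within 1 kb of these starts in all 8 mice. They are the 250 bases before each RefSeq start on the plus strand of GRCm38, at chr8:83290098-83290347 for Ucp1, chr7:100493108-100493357 for Ucp2 and chr7:100472741-100472990 for Ucp3. The Ucp3 stretch lies within the antisense gene Gm10603 and the Ucp1 stretch in no annotated gene. Capitals mark matches, on either strand, to AGGTCA (the hexamer bound by nuclear receptors), TGACG (the core of the cyclic AMP response element, whose full form TGACGTCA contains it), GGGCGG (the GC box), CCAAT (bound by the factor NF-Y) or TATAAA (the TATA box). A direct repeat with 1 base between was also searched, made of the hexamer AGGTCA itself, of its variant GGGTCA or of its other variant AGGACA.
Ucp1 promoter: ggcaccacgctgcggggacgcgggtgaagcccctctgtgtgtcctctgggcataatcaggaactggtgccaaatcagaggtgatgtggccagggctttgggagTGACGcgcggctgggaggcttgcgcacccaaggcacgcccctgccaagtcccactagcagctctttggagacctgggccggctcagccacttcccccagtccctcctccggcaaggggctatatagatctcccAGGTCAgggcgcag
Ucp2 promoter: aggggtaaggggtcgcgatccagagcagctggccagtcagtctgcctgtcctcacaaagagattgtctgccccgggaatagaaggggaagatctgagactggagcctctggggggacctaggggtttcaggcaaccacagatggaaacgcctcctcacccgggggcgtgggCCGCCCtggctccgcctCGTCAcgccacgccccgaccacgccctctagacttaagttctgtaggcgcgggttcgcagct
Ucp3 promoter: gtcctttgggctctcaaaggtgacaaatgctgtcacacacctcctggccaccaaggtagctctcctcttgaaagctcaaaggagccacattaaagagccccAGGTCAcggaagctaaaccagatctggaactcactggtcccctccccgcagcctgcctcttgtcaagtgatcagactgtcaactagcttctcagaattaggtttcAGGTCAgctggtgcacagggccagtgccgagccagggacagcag
The Ucp1 stretch held 1 AGGTCA and 1 TGACG, the Ucp2 stretch 1 TGACG and 1 GGGCGG on the minus strand, and the Ucp3 stretch 2 AGGTCA. Of 32851 promoter stretches of this length in the RefSeq table, 14.0% held AGGTCA, 17.8% TGACG and 32.7% GGGCGG. GC content was 64.8% in Ucp1, 63.6% in Ucp2 and 54.8% in Ucp3, against a median of 52.4% over all stretches. The ratio of observed to expected CpG was 0.457 for Ucp1, 0.634 for Ucp2 and 0.162 for Ucp3, against a median of 0.373. By base composition, the promoter of the widely expressed Ucp2 was the richest in CpG of the 3 and that of Ucp3 the poorest.

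The next sequence is shown because the H3K27ac domain before Ucp1 was interrupted there in several mice. In mice 1, 7, 8 and 10 that domain was called in pieces, and all 4 lists left a stretch of 241 to 330 bases free at the same place, with −2592 to −2352 bases from the TSS free in all 4. In mice 2, 4, 5 and 11 a peak ran through it. The shared stretch, at chr8:83287760-83288000 and in no annotated gene, was chosen after the peaks were seen.
Ucp1 gap: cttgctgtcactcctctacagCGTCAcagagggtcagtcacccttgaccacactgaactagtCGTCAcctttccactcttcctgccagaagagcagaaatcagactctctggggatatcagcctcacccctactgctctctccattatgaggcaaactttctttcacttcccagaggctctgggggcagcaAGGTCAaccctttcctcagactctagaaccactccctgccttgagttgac
It held TGACG at 2 places on the minus strand, starting at −2571 and −2530, and AGGTCA at −2401 (capitals as above). Around the midpoints of 50072 gaps of at most 600 bases between neighbouring H3K27ac peaks of the same list, 15.0% of stretches of 241 bases held TGACG and 17.8% AGGTCA, whatever the number of matches. A match is a run of letters, and binding was not measured.

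The last sequences are the centres of the 2 distal upstream elements that carried an H3K27ac summit in all 8 lists and ranked highest, with 100 bases to each side of the median summit. The Ucp1 element lies at chr8:83278161-83278361 between genes, and the Ucp3 element at chr7:100461334-100461534 lies within C2cd3 and in an exon of Gm10603.
Ucp1 element at −12.1 kb: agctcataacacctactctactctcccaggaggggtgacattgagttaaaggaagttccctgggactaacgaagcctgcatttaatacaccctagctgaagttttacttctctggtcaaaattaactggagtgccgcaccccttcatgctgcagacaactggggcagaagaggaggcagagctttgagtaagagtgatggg
Ucp3 element at −11.6 kb: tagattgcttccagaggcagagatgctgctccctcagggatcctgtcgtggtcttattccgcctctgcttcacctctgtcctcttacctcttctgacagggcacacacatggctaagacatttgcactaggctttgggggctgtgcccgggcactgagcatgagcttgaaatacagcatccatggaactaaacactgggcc
Neither held a match to the motifs named above. Of 198408 H3K27ac summits of the 8 lists, 14.5% held AGGTCA and 9.96% TGACG in a stretch of 201 bases.

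The depth of the libraries is unknown from the lists, and the number of peaks varied widely. H3K27ac lists held 3224 peaks in mouse 7, 14511 to 16889 in mice 10 and 1, and 28433 to 40604 in the other 5 mice. H3K4me3 lists held 13517 to 24104 peaks. The longest H3K4me1 list had 27568 peaks (mouse 5) and the shortest had 12 (mouse 7) and 18 (mouse 10), and H3K27me3 lists had between 20 and 6428, so absence of a peak means only that none was called. The fold of a peak is the enrichment over local background computed by the authors within 1 library, and it was used to rank peaks within their own list (rank 1 is the highest fold) and not compared between lists. Of 5 adipocyte markers (such as Fabp4 and Adipoq), 4 to 5 had an H3K27ac peak at the promoter in every list, and of 5 brown adipocyte markers 3 to 5. Of 5 endothelial markers 1 to 5 had one, and of the 3 liver and 3 neuron markers 0.

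At Ucp1 the H3K27ac peak was among the highest and widest of most lists. The highest peak that overlapped the 1 kb to either side of the TSS, called the promoter peak here, ranked 414 of 16889, 5722 of 28433, 67 of 3224 and 431 of 33798 in mice 1, 2, 7 and 8, the warm mice. In the cold mice it ranked 48 of 30544, 227 of 30495, 509 of 14511 and 660 of 40604 in mice 4, 5, 10 and 11. In 7 of 8 lists Ucp1 was thus in the top 3.51% by fold, and mouse 2, in which the peak was at 20.1%, stood apart. By −log10 q the ranks were 456, 3446, 36 and 220 in the same warm mice and 81, 261, 360 and 211 in the cold mice. The warm and cold ranks overlapped. Its folds ranged from 10.8 to 33.5.

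By geometric mean the Ucp1 peak ranked 246 in the cold and 511 in the warm lists, a difference of −0.32 in log10 rank (log10 rank 2.39 ± 0.51 and 2.71 ± 0.79, SD, n = 4 and 4), which was within the spread (exact permutation p = 0.543, adjusted 0.979). Without mouse 2 the difference reversed to 0.03. Of 821 genes with an H3K27ac promoter peak in all 8 lists, 2.68% had warm and cold ranks that did not overlap, and Ucp1 was not one of them. For diet the ranks overlapped as well, with geometric means of 314 on HFD and 401 on NCD (exact permutation p = 0.971, adjusted 0.997), against 4.63% of genes that did not overlap by diet. Without mouse 2 or mouse 7 that difference, −0.11 in log10 rank, reversed to 0.28 and 0.12.

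On NCD the Ucp1 peak was placed higher in both cold mice than in both warm mice, and on HFD it was placed lower by fold in both cold mice than in both warm mice. The HFD groups overlapped by other measures of place. By −log10 q cold mouse 11 ranked 211, above warm mouse 8 at 220, and as a share of the list cold mouse 11 was at 1.63%, above warm mouse 7 at 2.08%. The cold difference in log10 rank was −1.17 on NCD and 0.53 on HFD. The difference between these, −1.70, did not pass (exact permutation p = 0.0571 over 2520 assignments, adjusted 0.457 over 8 interactions), and it lay between −2.27 and −1.13 when 1 mouse was left out.

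**Figure D1:**
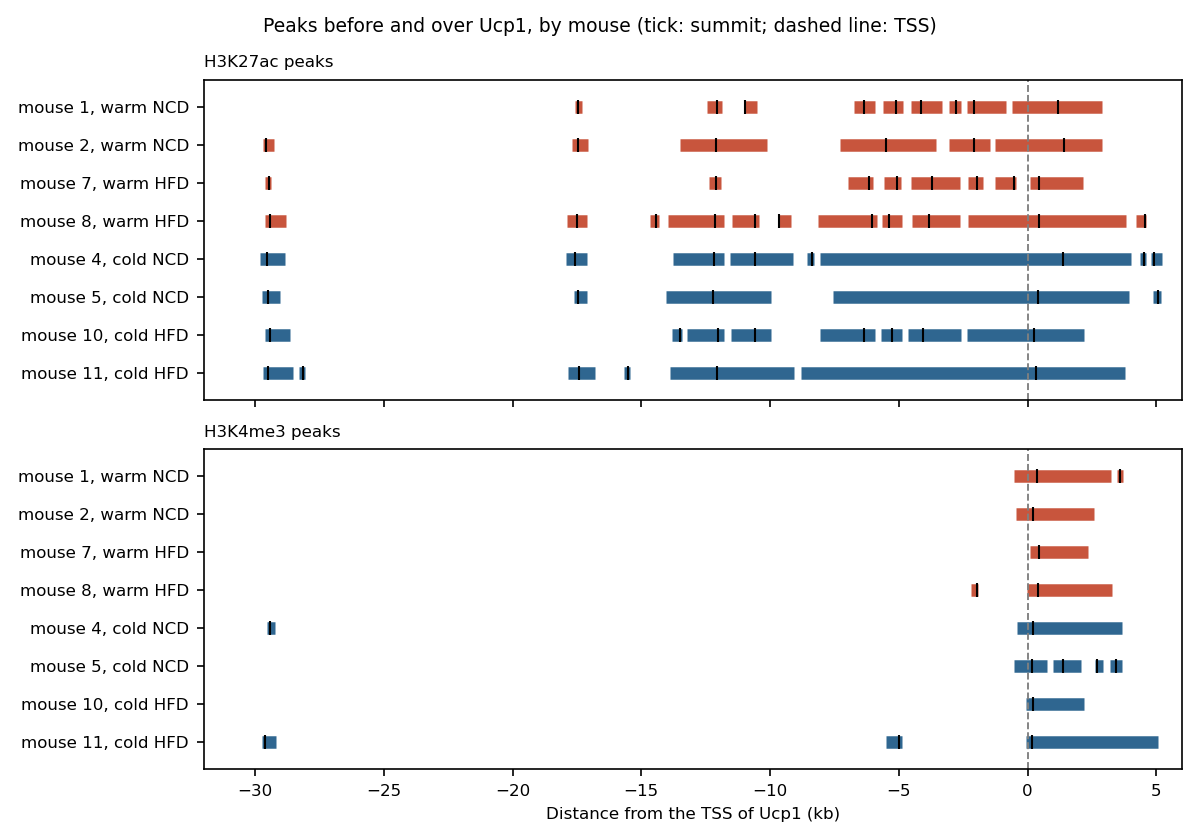
H3K27ac (top) and H3K4me3 (bottom) peaks by distance from the Ucp1 TSS in kb, 1 line per mouse, warm in red and cold in blue. Bars span the called peaks and ticks mark summits. The H3K27ac peak over the TSS began at −8063, −7559 and −8790 bp in mice 4, 5 and 11, and H3K27ac over the same stretch was in pieces in the other 5.

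The Ucp1 promoter peak was also wide, within the top 1.75% of every list by width. It spanned 3.50 kb, 4.16 kb, 2.05 kb and 6.13 kb in mice 1, 2, 7 and 8, all warm. It spanned 12.1 kb, 11.5 kb, 4.54 kb and 12.6 kb in mice 4, 5, 10 and 11, all cold. By width it ranked 12 in mice 4 and 5, 29 in mouse 11 and 68 in mouse 10, and 152, 498, 53 and 108 in warm mice 1, 2, 7 and 8. The 3 widest were all cold, but cold mouse 10 lay within the warm range. In mouse 7 the peak began 89 bp after the TSS.

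Geometric mean width was 9.44 kb in the cold and 3.68 kb in the warm mice, 2.57 times as wide, and the test did not pass (exact permutation p = 0.0571, adjusted 0.970 over 821 genes). In all, 2.92% of these genes had widths that did not overlap by temperature, and Ucp1 was not among them. The median gene was also wider in the cold, by 0.13 in log10 bp against 0.41 at Ucp1, and 40 of the 821 genes, Ucp1 included, had a difference as large. By diet the widths of Ucp1 overlapped, at 5.18 kb on HFD and 6.71 kb on NCD (exact permutation p = 0.657, adjusted 0.847), against 1.71% of genes that did not overlap. The 3 mice with the widest peak also had 3 of the 4 longest H3K27ac lists, and the part of list length in the width was not tested. Width was looked at after the peaks had been seen.

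Before Ucp1, H3K27ac recurred at the same positions. The element at −12.1 kb had a summit in 8 of 8 lists, within 193 bp of each other. That at −29.5 kb, in an intron of the neighbouring gene Tbc1d9, had one in 7 lists (all but mouse 1), and that at −17.5 kb, in an exon of Tbc1d9, in 6 lists (all but mice 7 and 10). Between −6.26 and −3.94 kb a peak covered each of 3 recurring summits in all 8 lists, as separate peaks or within the peak over the TSS. Every mouse thus had H3K27ac called in the 10 kb before the gene. H3K27ac peaks in the whole window numbered 5 to 11 per list and covered 7.69 to 17.1 kb in the warm and 13.9 to 20.5 kb in the cold mice. All H3K27ac peaks of a list together covered 1647657 to 27983116 bp in the warm and 9811280 to 36464090 bp in the cold mice. The part of these totals in the covered length at Ucp1 was not tested.

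The −12.1 kb peak, the highest of each list between −50 and −10 kb, ranked 6424, 3862, 1525 and 3451 in mice 1, 2, 7 and 8. It ranked 538, 7083, 1146 and 446 in mice 4, 5, 10 and 11. The 3 best-placed lists were cold, and by this rank cold mouse 5 was placed lower than any other. As a share of its list mouse 5, at 23.2%, was above warm mice 1 and 7, at 38.0% and 47.3%, and by −log10 q its rank of 4965 was above the 5745 of mouse 1. By geometric mean the ranks were 1181 in the cold and 3380 in the warm (log10 difference −0.46, exact permutation p = 0.200, adjusted 0.942). By diet they were 1281 on HFD and 3118 on NCD (exact permutation p = 0.286, adjusted 0.860). Of 1403 genes with a distal upstream peak in all 8 lists, 2.28% did not overlap by temperature and 4.42% by diet, and Ucp1 overlapped in both. The difference between the cold effects on the 2 diets was 0.10 (exact permutation p = 0.857, adjusted 0.979). At −12.1 kb an H3K4me1 peak was called in mice 2, 4 and 5, with folds of 4.56, 4.81 and 4.34.

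H3K4me3 at Ucp1 had its summit 166 to 438 bp after the TSS in all 8 mice and stood lower in its lists than H3K27ac did. It ranked 7924 of 20304, 7297 of 21024, 3369 of 13517 and 7600 of 19079 in mice 1, 2, 7 and 8. In the cold it ranked 2241 of 22321, 6914 of 22692, 5654 of 17195 and 6469 of 24104 in mice 4, 5, 10 and 11. These places are between the top 10.0% and 39.8% of the lists. By −log10 q the ranks were 7707, 7632, 4964 and 8420 in the warm and 5170, 7873, 6568 and 5785 in the cold mice.

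The warm and cold H3K4me3 ranks of Ucp1 overlapped, with geometric means of 4879 in the cold and 6203 in the warm lists (log10 difference −0.10, exact permutation p = 0.457, adjusted 0.962). Without mouse 4 the difference was 0.01. They overlapped by diet too, at 5532 on HFD and 5471 on NCD (exact permutation p = 0.971, adjusted 1.00). Of 9106 genes with an H3K4me3 promoter peak in all 8 lists, 2.55% did not overlap by temperature and 2.95% by diet, and none of the 3 uncoupling protein genes was among either.

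At the Ucp3 promoter H3K27ac stood in the top 9.52% of every list, and cold lists placed it lower by rank than warm lists, a direction that turned when places were taken as percentiles of the list. It ranked 567, 192, 307 and 476 in mice 1, 2, 7 and 8, the warm mice, and 619, 764, 804 and 813 in mice 4, 5, 10 and 11, the cold mice. By −log10 q the ranks were 541, 211, 314 and 434 in the warm and 895, 859, 791 and 605 in the cold mice. Every warm list placed Ucp3 higher than every cold list, by either column. The H3K27ac peak also covered the start of Gm10603, and its summit lay 1417 and 1423 bp after the Ucp3 TSS in mice 5 and 8. It was 3.55 to 6.39 kb wide, and the widths overlapped between temperatures (exact permutation p = 0.229, adjusted 0.970) and between diets (exact permutation p = 0.657, adjusted 0.847).

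The geometric mean rank of the Ucp3 peak was 746 in the cold and 355 in the warm (log10 rank 2.87 ± 0.06 and 2.55 ± 0.21, SD, n = 4 and 4). The difference of 0.32 had the smallest p the design allows (exact permutation p = 0.0286) and did not pass adjustment over 821 genes (0.848). Ucp3 was 1 of 22 genes, or 2.68%, whose ranks did not overlap by temperature, of which 17 were placed lower in the cold. As a percentile of the own list the difference reversed, with cold lists 0.787 points higher (exact permutation p = 0.800, adjusted 0.985), and the shortest list, of 3224 peaks, was a warm one. By diet the ranks overlapped, at 556 on HFD and 476 on NCD (exact permutation p = 0.686, adjusted 0.982). The cold differences on NCD and HFD were 0.32 and 0.33 in log10 rank (exact permutation p = 1.00 for the interaction, adjusted 1.00). Ucp3 is also a gene of skeletal muscle. Of 5 muscle markers 0 to 1 had an H3K27ac and 0 to 2 an H3K4me3 promoter peak per list, and 4 and 3 of them had none in any list.

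**Figure D2:**
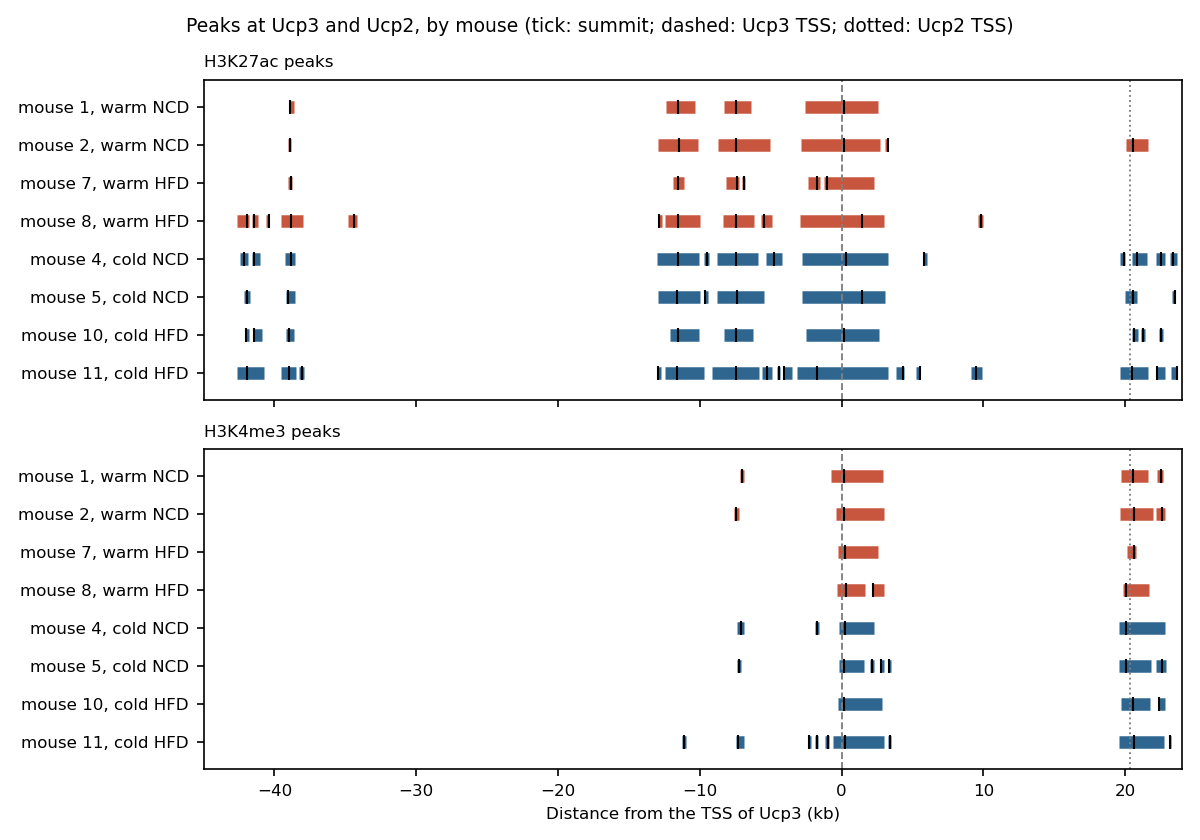
H3K27ac (top) and H3K4me3 (bottom) peaks by distance from the Ucp3 TSS in kb, 1 line per mouse, warm in red and cold in blue. Bars span the called peaks, ticks mark summits, and the dotted line is the Ucp2 TSS. H3K27ac lay at −11.6 kb, at −7.44 kb and over the Ucp3 TSS in all 8 mice and at the Ucp2 TSS in mice 2, 4, 5, 10 and 11.

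Upstream of Ucp3, H3K27ac summits recurred in 8 of 8 lists at −38.9, −11.6 and −7.44 kb, all within the body of C2cd3. The summits at −7.44 kb fell within 94 bp of each other and those at −11.6 kb within 112 bp. The −11.6 kb peak was the highest of the distal bin in every list, and ranked 717, 2527, 86 and 750 in mice 1, 2, 7 and 8. In the cold it ranked 158, 810, 78 and 810 in mice 4, 5, 10 and 11. It was thus in the top 8.89% of every list. The ranks overlapped by temperature (geometric means 300 in the cold and 585 in the warm, exact permutation p = 0.571, adjusted 0.974) and by diet (253 on HFD and 694 on NCD, exact permutation p = 0.286, adjusted 0.860).

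The −7.44 kb peak ranked 853, 980, 791 and 10351 in mice 1, 2, 7 and 8, and 1093, 371, 72 and 685 in mice 4, 5, 10 and 11. As a share of the list the peak stood lowest in warm mice 8 and 7, at 30.6% and 24.5%, and at 0.496% to 5.05% in the other 6. By −log10 q it was lowest in mouse 7, at 20.3%, then in mouse 8, at 9.36%. The highest peak between −10 and −1 kb was this one in all mice but mouse 7, in which the peak over the TSS had its summit at −1008 bp. Ranks of the highest proximal peak overlapped by temperature (geometric means 376 in the cold and 1277 in the warm, exact permutation p = 0.314, adjusted 0.879) and by diet (629 on HFD and 763 on NCD, exact permutation p = 0.800, adjusted 0.917). Of 300 genes with such a peak in all 8 lists, 1.67% did not overlap by temperature and 4.67% by diet.

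The Ucp3 elements also carried H3K4me1. An H3K4me1 peak lay within 500 bp of −7.44 kb in 6 lists and of −11.6 kb in 5, and mice 7 and 10, whose H3K4me1 lists had 12 and 18 peaks, had none. The peak at −11.6 kb ranked 60 of 15676 in mouse 4, 360 of 27568 in mouse 5, 1269 of 7774 in mouse 11, 8093 of 17597 in mouse 8 and 17294 of 21356 in mouse 2. That at −7.44 kb ranked 119 of 592, 502 of 21356, 2769 of 15676 and 1880 of 27568 in mice 1, 2, 4 and 5, and 16871 of 17597 and 5839 of 7774 in mice 8 and 11. The places thus ran from near the top to near the bottom of the lists. At Ucp1 10 H3K4me1 peaks in 5 lists lay in the window, and 6 of them were in mouse 5. Around the TSS, within 1 kb, an H3K4me1 peak was called at Ucp3 in mice 4, 5 and 8 and at Ucp1 or Ucp2 in 0 lists.

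H3K4me3 at the Ucp3 promoter was called in all 8 mice and ranked 4150, 5938, 371 and 9687 in mice 1, 2, 7 and 8. In the cold it ranked 2296, 10105, 3564 and 7656 in mice 4, 5, 10 and 11. The ranks overlapped by temperature (geometric means 5016 in the cold and 3068 in the warm, exact permutation p = 0.686, adjusted 0.971) and by diet (3147 on HFD and 4890 on NCD, exact permutation p = 0.743, adjusted 0.998). Without mouse 7 both differences, 0.21 and −0.19 in log10 rank, reversed, to −0.09 and 0.12. A small H3K4me3 peak at about −7 kb appeared in mice 1, 2, 4, 5 and 11.

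At Ucp2 H3K27ac was called in fewer mice than at its neighbour. A peak lay at its promoter in 4 of 4 cold mice and 1 of 4 warm mice, with ranks of 7859 of 28433 in warm mouse 2, 12139 of 30544, 19858 of 30495, 5246 of 14511 and 4505 of 40604 in mice 4, 5, 10 and 11. None was called in mice 1, 7 and 8, although the list of mouse 8 was the second longest. The difference did not pass (Fisher's exact p = 0.143). Without mouse 2 it was 4 of 4 against 0 of 3 (Fisher's exact p = 0.0286), and among peaks with a −log10 q of 5 or more it was 3 cold mice against 1 warm mouse. By diet the peak was present in 2 HFD and 3 NCD mice (Fisher's exact p = 1.00).

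Of 10796 genes with an H3K27ac promoter peak in any list, 63, or 0.584%, had it in all 4 cold and at most 1 warm list, and 0 had it in all 4 warm and at most 1 cold list. The latter requires a peak in the list of mouse 7, of 3224 peaks, so the counts in the opposite directions cannot be compared. Of the 63, 52 had 4 cold lists and 1 warm list as Ucp2 did. Of the 1714 genes with the peak in exactly 5 lists, 3.03% had it in 4 cold lists and 1 warm list, and 26 genes over all had it in the same 5 lists as Ucp2. The 3 lists without it included the 3224 and 16889 peaks of mice 7 and 1. Of 5 macrophage markers 1 to 2 had an H3K27ac promoter peak in the cold lists and 0 to 1 in the warm lists. Cd14 had one in all 4 cold lists and in warm mice 2 and 8, Cd68 in cold mice 4 and 11, and Csf1r, Adgre1 and Lyz2 in none. In mice 1 and 7, which also lacked the Ucp2 peak, 0 of the 5 had one, while mouse 8, which lacked it too, had Cd14. Among the endothelial markers, Cdh5 and Tie1 had a peak in the same lists as Cd14. Pecam1 had one in all 8 lists, Kdr in all but mouse 7 and Tek in all but mice 7 and 10. The part of list length and of other cells in the split was not tested. Ucp2 had no peak of any mark between −10 and −1 kb in any list.

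Within the body of Ucp2, from 1 kb after the TSS, an H3K27ac summit was called in 4 of 4 cold and 0 of 4 warm mice (Fisher's exact p = 0.0286, the smallest possible with these numbers and not adjusted, 1 of 22 such tests of the 3 genes by temperature). This was looked at after the data were seen. Of 7022 genes with a summit in the body in any list, 28, or 0.399%, had this split, and 0 the reverse. The reverse requires a summit in warm mouse 7, whose list held only 3224 peaks, so the counts in the opposite directions cannot be compared. The part of list length in the split was not tested. The Ucp2 body peaks were weak. With −log10 q of at least 5 they were in 1 cold mouse and 0 warm mice, and in mouse 10 the peak had a −log10 q of 1.32. The split depended on the summit rule. Counted by overlap, as at the promoters, an H3K27ac peak lay in the body in 4 of 4 cold mice and in warm mouse 2 (Fisher's exact p = 0.143). By diet 22 such tests were made as well. With −log10 q of at least 5, an H3K27ac summit lay in the Ucp1 body in 4 NCD and 0 HFD mice (Fisher's exact p = 0.0286, not adjusted). Without that limit it was 4 and 2 mice (Fisher's exact p = 0.429), and by overlap all 8. The share of all genes with this diet split was not counted.

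H3K4me3 at Ucp2 was called in 8 of 8 mice, at ranks of 10613, 9004, 3375 and 13984 in mice 1, 2, 7 and 8. The cold mice had ranks of 11963, 10236, 3782 and 8093 in mice 4, 5, 10 and 11. They overlapped by temperature (geometric means 7824 in the cold and 8195 in the warm, exact permutation p = 0.857, adjusted 0.988) and by diet (6165 on HFD and 10401 on NCD, exact permutation p = 0.257, adjusted 0.993). The temperature difference of −0.02 in log10 rank changed sign without mouse 1, 8 or 10. The Ucp2 promoter thus carried H3K4me3 in all 8 mice and H3K27ac in 5.

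**Figure D3:**
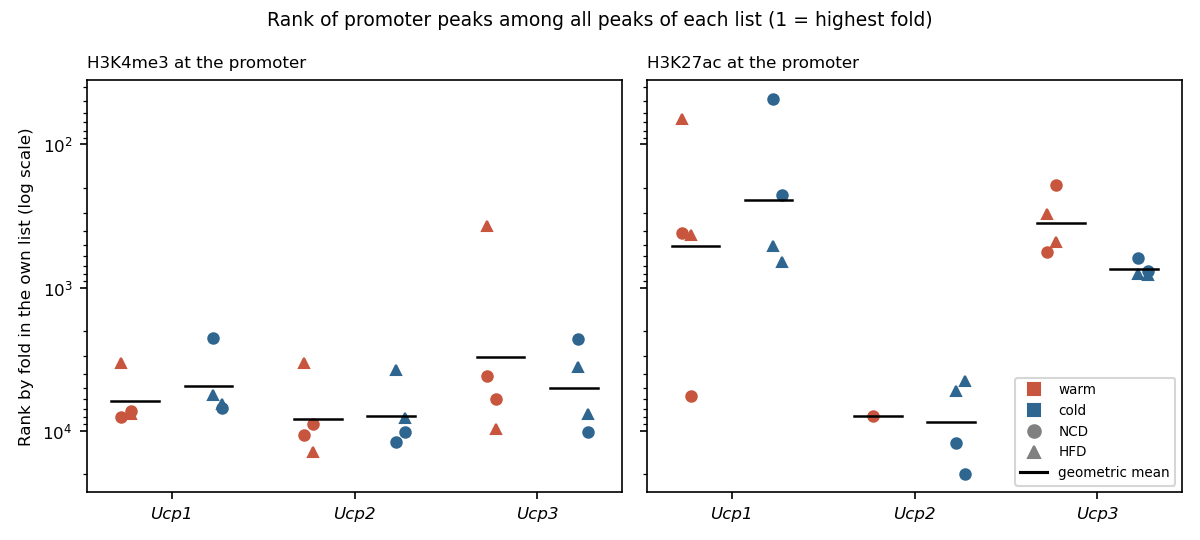
Rank by fold of the promoter peaks of Ucp1, Ucp2 and Ucp3 within the own list (log scale, higher on the axis is a higher fold), for H3K4me3 (left) and H3K27ac (right). Each point is 1 mouse, warm in red and cold in blue, circles NCD and triangles HFD, and the bar is the geometric mean of a temperature. H3K27ac ranks of Ucp1 and Ucp3 lie between 48 and 813 except for 5722 in mouse 2 at Ucp1, and Ucp2 has points from 5 mice.

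The 3 genes were compared within lists, since each list ranks all of them on 1 scale. By H3K27ac, Ucp1 was placed above Ucp3 in 7 of 8 lists, with a mean log10 difference of −0.16 (exact sign-flip permutation p = 0.562, adjusted 0.562 over 6 comparisons). Mouse 2 was the exception, and without it the difference was −0.40 (adjusted 0.0469, same test). In the 5 lists in which Ucp2 had a peak, Ucp1 ranked 18.4 times and Ucp3 15.0 times closer to the top (each in 5 of 5 lists, exact permutation p = 0.0625, the smallest 5 lists allow, adjusted 0.125).

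By H3K4me3, Ucp3 was placed above Ucp2 in 8 of 8 lists, 2.04 times closer to the top (mean log10 difference −0.31, exact sign-flip permutation p = 0.00781, adjusted 0.0469). Ranked by −log10 q, the same pair had −0.24 (adjusted 0.0938, same test). Ucp1 was above Ucp2 in 7 of 8 lists (−0.16, exact permutation p = 0.0859, adjusted 0.129) and above Ucp3 in 4 of 8 (0.15, exact permutation p = 0.297, adjusted 0.356). Without mouse 10 the pair of Ucp1 and Ucp2 had −0.21 (adjusted 0.0469). The order by H3K4me3 was thus Ucp3, Ucp1, Ucp2 by geometric mean, and the test separated Ucp3 from Ucp2 and neither of them from Ucp1.

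Ucp1 and Ucp3 stood higher in the H3K27ac lists than in the H3K4me3 lists. For Ucp1 the mean log10 rank was 2.55 ± 0.64 for H3K27ac and 3.74 ± 0.20 for H3K4me3 (SD, n = 8 and 8), so that it was placed 15.5 times closer to the top by H3K27ac (exact permutation p = 0.000622, adjusted 0.00964 over 729 genes with both peaks in all 8 mice). For Ucp3 it was 2.71 ± 0.22 and 3.59 ± 0.47 (SD, n = 8 and 8), 7.62 times closer (exact permutation p = 0.00109, adjusted 0.0118). Both genes were higher by H3K27ac in all 8 mice. Of the 729 genes, 22.4% passed in this direction. This test treats the 16 lists as independent, although the 2 marks share their mouse numbers. With the mouse number as block, both genes had an exact sign-flip permutation p of 0.00781 (adjusted 0.0335), and 30.0% of the 729 genes passed. The median gene differed by −0.26 in log10 rank, against −1.19 for Ucp1 and −0.88 for Ucp3, and 31 genes (Ucp1 included) were as far from 0 in this direction as Ucp1 and 77 as Ucp3. The lists of the 2 marks differ in length, which ranks do not remove. In mouse 7 the H3K27ac list held 3224 peaks and Ucp1 ranked 3369 by H3K4me3, so its higher place by H3K27ac was fixed there. The rules also differed, since a promoter peak was taken by overlap for H3K27ac and by summit for H3K4me3. Ucp2, with 5 and 8 lists, had a difference of 0.03 (exact permutation p = 0.846).

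**Figure D4:**
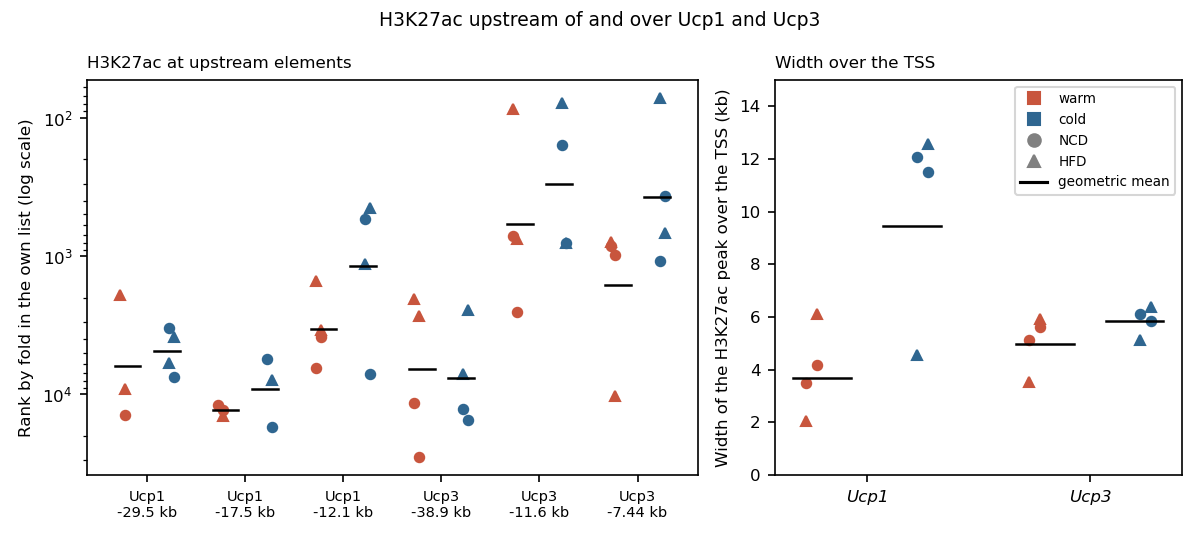
Left, rank by fold in the own list (log scale) of H3K27ac peaks at the recurring upstream elements. Right, width in kb of the H3K27ac promoter peak of Ucp1 and Ucp3. Points are mice, warm in red and cold in blue, circles NCD and triangles HFD, and bars geometric means of a temperature. Widths at Ucp1 are 11.5 to 12.6 kb in 3 of 4 cold mice and 2.05 to 6.13 kb in the warm mice, with cold mouse 10 at 4.54 kb.

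Of 821 genes with an H3K27ac promoter peak in all 8 lists, 1 (Clec2d) ranked above Ucp1 by H3K27ac in all 8 lists. In single lists 26 to 3885 genes ranked above Ucp1, so its best-placed list limits the count over all lists to at most 26. By H3K4me3, of 9106 genes, 577 ranked above Ucp1, 1576 above Ucp2 and 166 above Ucp3 in all 8 lists. The 5 genes whose H3K27ac log10 rank followed Ucp1 most closely over 8 lists were Nudt12, Slco2b1, Cyp4f13, H6pd and Vgll4 (Pearson's r 0.967, 0.885, 0.802, 0.777 and 0.774, against a median of −0.16 over 820 genes). For Ucp3 they were Bckdha, Exosc5, Ppp2r1a, Clptm1 and Atp6v1a (r 0.865, 0.865, 0.827, 0.818 and 0.772, median 0.08). All these points share the 8 libraries and the lengths of their lists.

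Genes of heat production other than the uncoupling proteins were marked too. Of a list of 26, which holds receptors, transcription factors and enzymes of thermogenesis, 16 had an H3K27ac and 16 an H3K4me3 promoter peak in all 8 mice. Of all 21951 protein-coding genes, 821 had such an H3K27ac peak and 9106 such an H3K4me3 peak. By temperature 0 of 16 had ranks that did not overlap in either mark, against 2.68% of all genes in H3K27ac and 2.55% in H3K4me3. By diet it was 1 of 16 in H3K27ac, Gk (glycerol kinase, −0.47 in log10 rank, HFD placed higher), and 0 in H3K4me3, against 4.63% and 2.95% of all genes, so 1 gene is near the share over all genes. The median difference between cold and warm over the 16 genes was −0.11 in log10 H3K27ac rank, against 0.05 over all genes, and −0.05 in H3K4me3, against 0.01. Between HFD and NCD it was −0.30 in H3K27ac, against 0.03 over all genes, and −0.20 in H3K4me3, against 0.01.

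Among these, Cidea, a lipid droplet protein of brown fat, had a median H3K27ac rank of 677 over 8 lists. Dio2, which makes active thyroid hormone, had 4779 and Ppargc1a, a coactivator of mitochondrial genes, had 2376, both over 8 lists. Prdm16, a regulator of brown fat identity, had 1754 over 5 lists and Elovl3, a fatty acid elongase, 8204 over 4. Of 8 other carriers of the mitochondrial inner membrane, all 8 had promoter H3K4me3 in every mouse, as did 9106 of all 21951 protein-coding genes. H3K27ac was in every mouse at 1 of the 8 carriers, Slc25a20 (the carnitine carrier), and in no mouse at Slc25a14 and Slc25a27. Over all 21951 genes, 821 had promoter H3K27ac in every mouse.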

How the data were processed

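Chromatin immunoprecipitation with sequencing was done for H3K4me3, H3K27ac, H3K4me1 and H3K27me3 in iBAT of 8 mice, with 1 input per mouse (40 samples, 32 with a peak list). Per the study's methods and the submitters' processing notes, the authors trimmed reads with cutadapt, aligned them to GRCm38 with Bowtie2 and called peaks per library with MACS2 against input. The notes also name deepTools, with versions not given in the sources used here. Each deposited peak carries a fold (the ratio of ChIP signal over local background) and −log10 p and −log10 q values that the authors obtained within 1 library. The lists give no read totals, so depth is unknown, no counting interval was given, and values were compared only as ranks within the own list.

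Groups came from the labels. The labels do not say whether mice were housed or processed separately, so p-values measure the spread between these samples. Genes were protein-coding genes of the GENCODE M21 basic annotation. A promoter peak had its summit within 1 kb of a TSS. For H3K27ac, a peak overlapping that stretch was used instead, because the summit rule left 5 of 8 lists for Ucp1 and 4 of 8 for Ucp3. Upstream peaks were the highest with a summit 1 to 10 kb (proximal) or 10 to 50 kb (distal) before the gene. Log10 ranks of 4 and 4 lists were compared by two-sided exact permutation over 70 assignments, with Benjamini-Hochberg adjustment over all genes with a peak in all 8 lists and a threshold of 0.05. The smallest p is 0.0286, and 0 genes passed adjustment in any of these comparisons by temperature or diet, in which 232 and 269 genes (H3K4me3), 22 and 38 (H3K27ac promoter), 5 and 14 (proximal) and 32 and 62 (distal) had an unadjusted p under 0.05. Presence was compared by two-sided Fisher's exact test, unadjusted. Members were ordered by sign flips over lists. Marks were compared over 8 and 8 lists, adjusted over 729 genes where an adjustment over the members had been planned. Lists were matched across marks by the mouse number in their labels, and the methods leave it unclear whether a number stands for a single animal. The deviations of same-numbered H3K27ac and H3K4me3 lists from their group means correlated at r of 0.31 to 0.51 over these genes. With 2 mice per condition the deviations mirror each other, so each condition gives 1 value of r. The part of list length in it was not tested. The blocked comparison is given with the limits.

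The uncoupling protein genes were named whatever their values, with peaks found in at least 4 of 8 lists, the 5 genes most alike to each, genes ranked above in all lists, and 5 thermogenic genes. A thermogenic gene was otherwise named if its groups did not overlap by temperature. Gk, Slc25a20, Slc25a14, Slc25a27 and the gene above Ucp1 were named after their values were seen. The genes above Ucp3 by H3K27ac are not reported here. Members and lists were chosen with earlier results of these data known. Summit clusters (within 400 bp), gaps, widths, the gene bodies of Ucp1 and Ucp2 and the H3K27ac overlap rule were chosen after the data were seen. Promoter sequences are RefSeq's (GRCm38) and all 3 members matched. Python 3.11.15, numpy 2.4.6, pandas 2.3.3, scipy 1.17.1 and matplotlib 3.10.9 were used, and the tests were tested on simulated data.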

Additional observations from a re-analysis of the deposited data

Results flagged for a closer look

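In 2 of 32 groups of 4 lists, 1 list stood apart from the other 3 by more than Dixon's 95% critical value for 4 values. Chance alone gives this in about 1 of 20 groups. Both were H3K4me3 at the Ucp1 promoter. Among the warm lists mouse 7 ranked 3369 and the others 7297 to 7924 (gap over range 0.904), and among the NCD lists mouse 4 ranked 2241 and the others 6914 to 7924 (0.892). The list of mouse 7 is the shortest of H3K4me3, with 13517 peaks, and that of mouse 4 has 22321. Their part in these ranks was not tested.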

How the results depend on the processing

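Ranked by −log10 q, the difference reversed for Ucp1 H3K4me3 by diet (−0.04), Ucp3 H3K27ac by diet (−0.03), the interactions of Ucp3 H3K27ac (0.14) and Ucp1 distal (−0.08), and Ucp2 between marks (−0.02), and the H3K4me3 order of Ucp3 and Ucp2 no longer passed (−0.24). As percentiles, where a higher value is a higher place, the direction reversed for Ucp3 H3K27ac by temperature (0.787), Ucp3 H3K4me3 by diet (−0.499), Ucp3 proximal by diet (−7.32), the interactions of Ucp3 H3K4me3 (−3.31) and Ucp3 H3K27ac (−2.04), the H3K27ac order of Ucp1 and Ucp3 (−0.533), and Ucp2 between marks (7.00). The cause was not tested. With −log10 q of at least 5 the mean number of H3K27ac peaks in the Ucp1 window moved to 5.75, and the Ucp1 distal comparison had no value (7 lists). For H3K27ac promoters the summit rule gave no rank difference by temperature or diet and no order of Ucp1 and Ucp3. It gave values for the H3K27ac orders of Ucp1 and Ucp2 and of Ucp3 and Ucp2, and for Ucp2 between marks. These 3 calls stayed the same.

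With 1 mouse left out, differences in log10 rank by temperature ranged from −0.19 to 0.01 (Ucp1 H3K4me3), −0.15 to 0.09 (Ucp2 H3K4me3), −0.09 to 0.38 (Ucp3 H3K4me3) and −0.61 to 0.03 (Ucp1 H3K27ac). By diet they ranged from −0.12 to 0.08 (Ucp1 H3K4me3), −0.35 to 0.12 (Ucp3 H3K4me3), −0.41 to 0.28 (Ucp1 H3K27ac), −0.06 to 0.15 (Ucp3 H3K27ac) and −0.49 to 0.23 (Ucp3 proximal). Interactions ranged from −0.16 to 0.46 (Ucp2 H3K4me3), −1.16 to 0.26 (Ucp3 H3K4me3), −0.24 to 0.23 (Ucp3 H3K27ac), −0.02 to 1.51 (Ucp3 proximal) and −0.46 to 0.66 (Ucp1 distal). Orders ranged from −0.21 to −0.08 (Ucp1 and Ucp2, H3K4me3), −0.35 to −0.22 (Ucp3 and Ucp2, H3K4me3, not passing in 6 of 8, smallest exact permutation p 0.0156 with 7 lists) and −0.40 to −0.03 (Ucp1 and Ucp3, H3K27ac). Ucp2 between marks ranged from −0.05 to 0.10, the Fisher's exact p of Ucp2 H3K27ac by temperature from 0.0286 to 0.143, and width by diet from −0.24 to 0.02 (Ucp1) and −0.08 to 0.01 (Ucp3).

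With the mouse as replicate block, the differences between marks were −1.19 for Ucp1 and −0.88 for Ucp3 (both exact permutation p = 0.00781, adjusted 0.0335) and 0.02 for Ucp2, and 30.0% of the 729 genes passed with H3K27ac higher. No call on the 3 genes changed.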

Other observations

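The H3K27ac domain before Ucp1 had further shared gaps. In mice 1, 7, 8 and 10 the stretches from −5864 to −5702 and from −4820 to −4629 bases from the TSS were also free of peaks. In warm mouse 2 and cold mice 4, 5 and 11 a peak spanned both. At −29.5 kb of Ucp1, within Tbc1d9, an H3K4me3 peak lay in cold mice 4 and 11 (folds 10.1 and 3.53) and in 0 of 4 warm mice, a difference that did not pass (Fisher's exact p = 0.429). At −42.0 kb of Ucp3, within C2cd3, H3K27ac was called in 4 of 4 cold mice and in 1 warm mouse, mouse 8, at 36.0% to 78.0% of the lists. The lists without it, of mice 1, 2 and 7, included the short ones of mice 1 and 7, and this split was not tested. How many regions over all showed such a split was not counted, so how common it is remains unknown. Slc25a20, the carnitine carrier, had H3K4me3 ranks on HFD (435, 1795, 1922 and 1472) that lay above all ranks on NCD (5001, 7358, 4863 and 3715), as 2.95% of the 9106 genes did not overlap by diet.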
